A study of Mus musculus with 6 samples.

Results

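The mitochondrial ribosomal proteins were followed in mouse embryonic stem (ES) cells before and after induction of a human GTF2I transgene. A gene was a member if a probe set carried a single symbol made of Mrpl or Mrps and a digit, and each gene was read on its brightest probe set, the one with the highest mean over all arrays. The rule used no difference between groups and found 76 of 18193 genes, measured by 156 of 45037 probe sets. The series holds 6 whole-genome mouse expression arrays, 3 of induced and 3 of uninduced cells. Induced cells of clones A1, B3 and C6 had grown for 24 h without tetracycline, and uninduced cells of the same clones were taken at 0 h, with tetracycline still in the medium. All 6 arrays, the uninduced ones included, came from the EBRTcH3 (EB3) ES line. Its Rosa26 locus holds the human GTF2I coding sequence behind a promoter that tetracycline represses. The paper describes the expression in tetracycline as basal. Each clone gave 1 array per state, so a value is that of 1 culture of a cell line, and the uninduced arrays carry the transgene too. The titles name GTF2I, whereas a field of the same samples names GTF2IRD2; the titles were followed.

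Mitochondria hold a ribosome of their own, which translates the few proteins that mitochondrial DNA encodes, nearly all of them core subunits of the respiratory chain and the ATP synthase. Its ribosomal RNAs come from mitochondrial DNA, but its proteins are encoded in the nucleus, made in the cytosol and imported. Many descend from bacterial ribosomal proteins and others were added later in evolution and have no bacterial counterpart. Mrpl genes encode proteins named for the large subunit and Mrps genes proteins named for the small subunit, which reads the messenger RNA. By these roles the members held 49 large subunit genes, 30 with a bacterial homolog and 19 specific to mitochondria, and 26 small subunit genes, 17 with a bacterial homolog and 9 specific to mitochondria. Mrps18a and Mrps30 keep a small subunit name but sit in the large subunit and were counted there. Mrps36 fits the naming rule but is known as a component of the ketoglutarate dehydrogenase complex, and was kept as the member outside either subunit.

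The promoters were read for motifs, which the rule did not use. RefSeq (build GRCm38.p6) listed a promoter, from 250 bases before to 50 bases after a start, for 67 of the 76 members. Genes of mitochondrial ribosomal proteins are known in mammals as housekeeping genes whose promoters often bind the ETS factor GABP, NRF1 and YY1. Of the 67 promoters 24 held CCGGAAG, the core of an ETS site, on either strand (35.8%), against 24.4% of 3880 genes whose probe set was at least as bright as the dimmest member and 9.12% of all 27025 genes listed. The palindrome CGCATGCG, the core of an NRF1 site, stood in 7 (10.4%, against 5.03% of the bright genes and 1.91% of all). AAGATGGC, the core of a YY1 site, stood in 12 (17.9%, against 6.93% of the bright genes and 2.88% of all). At least 1 of these 3 stood in 36 promoters (53.7%), against 33.3% of the bright genes and 13.1% of all. In 62 promoters of oxidative phosphorylation subunits the ETS core stood in 25.8%, the NRF1 core in 11.3% and the YY1 core in 12.9%, so the NRF1 share was no lower there than in the members. The E-box CACGTG stood in 7.46% of member promoters, against 12.2% of the bright genes and 7.24% of all, and the TATA box TATAAA in 5.97%, against 5.95% and 14.2%. The members and the bright genes thus shared the low share of TATA boxes. None of these motifs contains another, all were searched on both strands, and a match is only a run of letters.

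**Figure D1:**
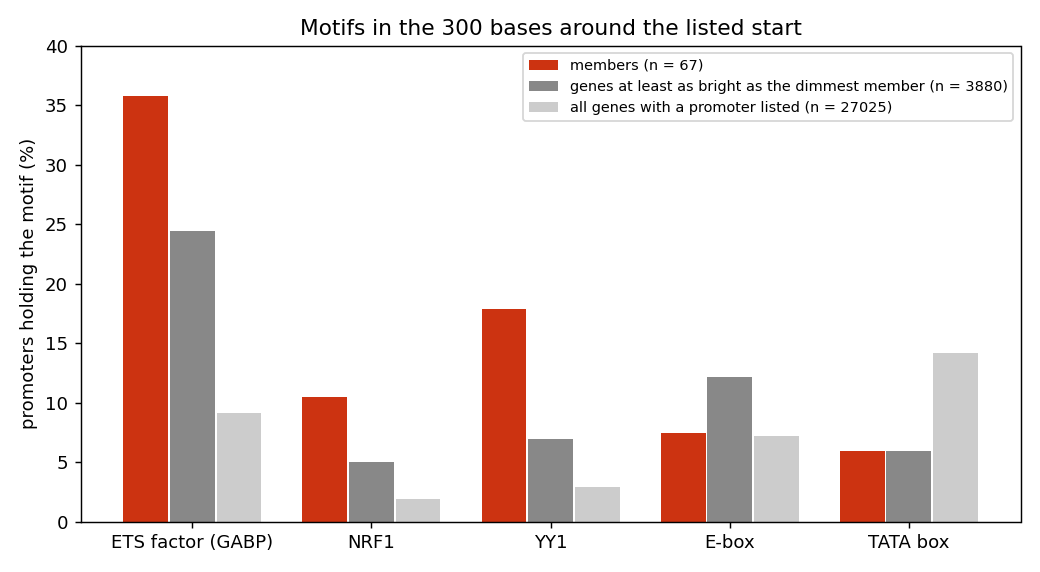
Share of promoters (in percent) that hold each motif on either strand, for 67 members, 3880 genes at least as bright as the dimmest member and all 27025 genes with a promoter listed. The ETS, NRF1 and YY1 bars are highest for the members, and the E-box and TATA box bars are not.

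Promoters of 3 members are printed, each for 1 motif: Mrpl43, a large subunit protein specific to mitochondria that barely moved on these arrays, and Mrpl39 and Mrps24, which moved in opposite directions in the clones as given further on. Capitals mark the motif, and position 1 is the first transcribed base of the listed start. The Mrps24 promoter also holds 1 match to the TATA box, which is left in small letters. Mrpl43 (chr19:45006393-45006692, minus strand) holds the ETS core at -56 to -50 and again at -12 to -6. Mrpl39 (chr16:84735195-84735494, minus strand) holds the NRF1 core at -124 to -117, and Mrps24 (chr11:5707652-5707951, minus strand) the YY1 core at 37 to 44.
Mrpl43: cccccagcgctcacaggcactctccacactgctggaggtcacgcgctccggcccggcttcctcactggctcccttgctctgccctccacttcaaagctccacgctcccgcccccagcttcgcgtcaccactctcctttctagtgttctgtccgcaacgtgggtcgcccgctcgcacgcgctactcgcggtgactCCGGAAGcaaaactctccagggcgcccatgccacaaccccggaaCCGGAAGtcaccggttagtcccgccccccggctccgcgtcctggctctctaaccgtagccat
Mrpl39: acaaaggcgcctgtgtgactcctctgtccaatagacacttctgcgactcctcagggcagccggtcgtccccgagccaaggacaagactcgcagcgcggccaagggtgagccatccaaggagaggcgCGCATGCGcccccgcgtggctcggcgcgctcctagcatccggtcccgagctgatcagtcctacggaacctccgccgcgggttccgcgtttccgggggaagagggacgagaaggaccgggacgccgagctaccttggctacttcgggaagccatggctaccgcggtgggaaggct
Mrps24: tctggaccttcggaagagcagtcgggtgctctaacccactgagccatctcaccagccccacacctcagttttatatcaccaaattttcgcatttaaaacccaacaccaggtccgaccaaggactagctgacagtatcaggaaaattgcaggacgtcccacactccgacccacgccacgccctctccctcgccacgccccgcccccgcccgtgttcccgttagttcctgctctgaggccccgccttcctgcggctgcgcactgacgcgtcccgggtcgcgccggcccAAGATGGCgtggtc

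Many members also share their promoter region with a gene that runs the other way. A start on the opposite strand lay within 1000 bases upstream of 25 of the 67 members (37.3%), against 21.4% of the bright genes and 11.4% of all genes listed. The partner of Mrpl43 at 116 bases was Twnk, the helicase that unwinds mitochondrial DNA, and Mrpl46 and Mrps11, a protein of either subunit, faced each other at 42 bases. Sars2, the mitochondrial seryl-tRNA synthetase, lay 147 bases from Mrps12, and Fau, a precursor of a cytosolic ribosomal protein, 192 bases from Mrpl49. These 25 members made 24 distinct pairs, since Mrpl46 and Mrps11 are each other's partner. In 12 of the 24 pairs the induction difference of A1 against the other clones, described further on, had the same sign in both genes. Sars2 had an A1 difference of 1.13 on the log2 scale beside 0.01 for Mrps12, and Twnk -0.21 beside 0.04 for Mrpl43. These pairs were singled out after their values were seen.

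The deposited values are log2 signals made by robust multiarray averaging (RMA), in which a step of 1 is a doubling. Array medians over all probe sets lay between 5.06 and 5.11 and correlations between arrays between 0.991 and 0.996. All 6 ES cell markers examined (Pou5f1, Nanog, Sox2, Zfp42, Dppa5a and Esrrb) had means above the upper quartile of every array, and the list averaged 12.46 to 12.64 on induced arrays and 12.53 to 12.60 on uninduced ones. The 6 fibroblast or feeder markers averaged 5.64 to 5.95 on induced and 5.68 to 5.78 on uninduced arrays. Of these, 4 (Col1a1, Col1a2, Col3a1 and Pdgfrb) lay below every array median. The mesenchymal filament gene Vim stood at 11.12 and Thy1 at 6.69, both above every array median. The means of clones A1, B3 and C6 were 11.61, 10.95 and 10.80 for Vim and 7.25, 6.34 and 6.49 for Thy1. Mouse Gtf2i was at 10.46, 10.79 and 10.80 on the induced A1, B3 and C6 arrays, against 10.31, 10.69 and 11.02 on the uninduced ones. Since the transgene is human and lacks untranslated regions, this mouse probe set does not check the induction. The paper measured the transgene by RT-PCR in clones A1, B3 and C6. In each clone its level was higher at 24 h without tetracycline than at 0 h.

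Every member lay above the upper quartile of all probe sets on every array. The brightest probe sets averaged 8.38 to 12.02 over the 6 arrays with a median of 10.15, against a median of 6.22 for all genes, and no member was dropped by a filter on low signal at a mean of 6. Signals of different probe sets also depend on their probes and on transcript length, so their order is one of signal and not of transcript amount. Mrpl15, a large subunit protein with a bacterial homolog, gave 11.99, 12.03 and 12.09 on induced A1, B3 and C6 arrays, against 12.02, 11.92 and 12.06 on uninduced arrays. Mrpl51 (mean 11.56) and Mrps14 (11.36) followed. At the low end stood Mrpl14 at 8.30, 8.40 and 8.63 in induced cells, against 8.30, 8.17 and 8.51 in uninduced cells, with Mrpl1 (8.39) and the small subunit protein Mrps27 (8.91) next to it. Large subunit members had a median of 10.25 and small subunit members 10.05, those with a bacterial homolog 10.19 and the mitochondria-specific ones 10.06.

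**Figure D2:**
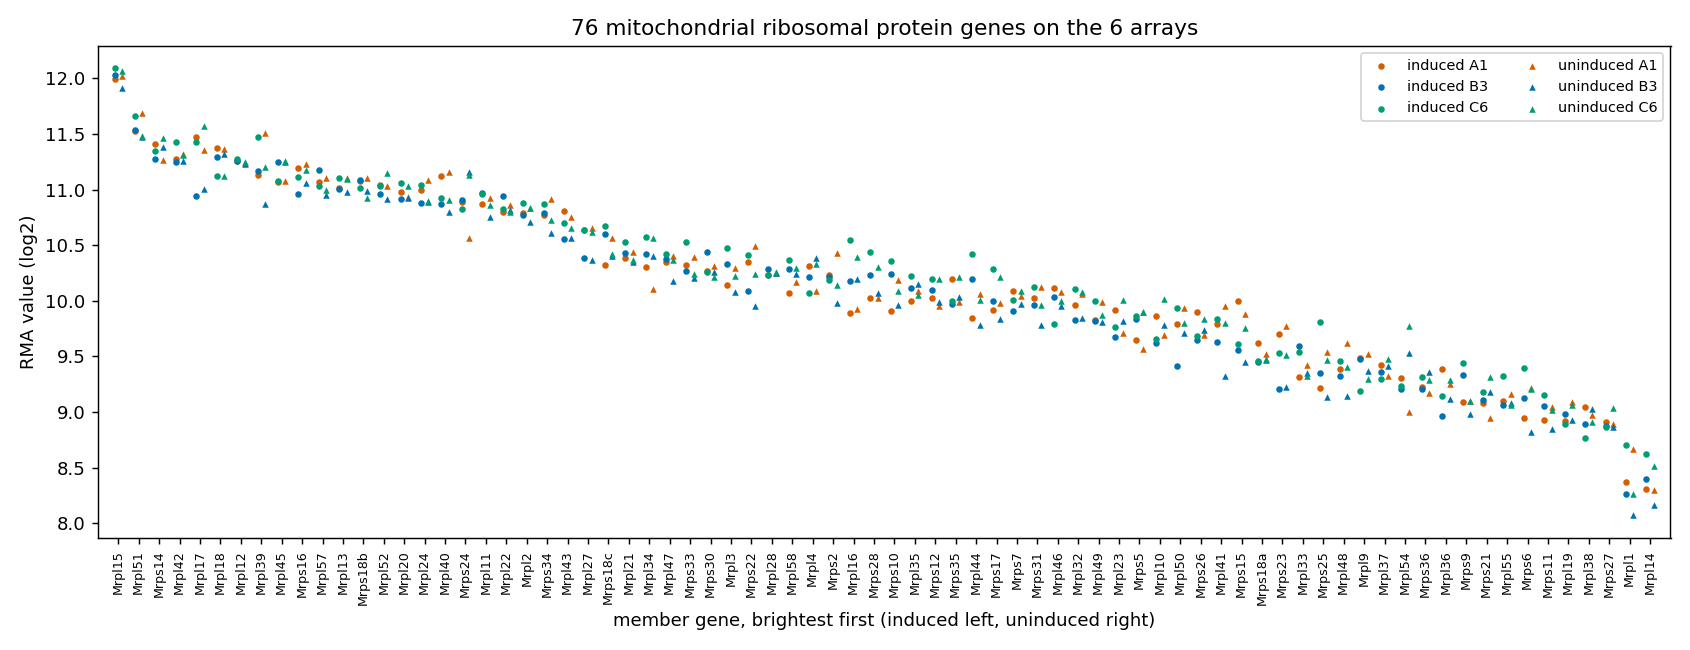
RMA values (log2) of the 76 members on the 6 arrays, ordered by mean, with induced arrays as circles left of uninduced arrays as triangles and 1 colour per clone. Means run between 8.38 and 12.02, and for most genes the induced and uninduced points overlap.

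The first question was whether 24 h of induction changed these genes, and no change was detected. With limma over all 45037 probe sets, induced minus uninduced, 0 probe sets (0.0%) had a Benjamini-Hochberg adjusted p under 0.05, and 0 of 76 members did. At an unadjusted p under 0.05, limma gave 0 members and 436 probe sets, the replicate block 0 members and 847 probe sets, and the methods' t-test 1 member and 867 probe sets. The members' median difference was 0.02 on the log2 scale, against -0.0019 for all genes, with 45 members above 0 and 31 below. The 95% interval of a member's difference had a median half-width of 0.26, and over all 76 members no interval reached below -0.61 or above 0.57, so a change of a full log2 unit lay outside every interval. In RNA from whole cultures, less RNA per cell and fewer cells expressing a gene cannot be told apart.

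The member with the smallest p was Mrps9, a small subunit protein with a bacterial homolog. It gave 9.09, 9.33 and 9.44 on induced A1, B3 and C6 arrays, against 9.10, 8.98 and 9.09 on uninduced arrays. Both B3 and C6 were higher when induced and A1 was not, so the groups overlapped. Its difference was 0.23 ± 0.12 (SE, n = 3 arrays each). Its adjusted p in limma was 1.00. Next in the upward direction came Mrpl44 (0.20 ± 0.16), Mrpl33 (0.12 ± 0.11), Mrpl3 (0.12 ± 0.12) and Mrpl11 (0.09 ± 0.09). In the downward direction came Mrpl19 (-0.10 ± 0.09), Mrpl54 (-0.19 ± 0.19), Mrpl10 (-0.12 ± 0.12), Mrpl50 (-0.10 ± 0.15) and Mrpl38 (-0.07 ± 0.10). These 9 differences were of about the size of their standard errors, and all 76 members had an adjusted p of 1.00 in limma.

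Mrpl43 gave 10.81, 10.55 and 10.70 on induced A1, B3 and C6 arrays, against 10.75, 10.56 and 10.65 on uninduced arrays. Each induced value lay beside the uninduced value of its own clone, and A1 was the highest clone in both states. The difference was 0.03 ± 0.11 (SE), with a 95% interval of -0.21 to 0.28. It had 1 probe set, so no other probes of the gene could be compared.

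In 1 of 76 members the induced and uninduced arrays did not overlap, against 4.55% of all probe sets. It was Mrpl12, named here after its values were seen. Its protein is the homolog of a bacterial ribosomal stalk protein and is also known to bind the mitochondrial RNA polymerase. It gave 11.26, 11.26 and 11.28 on induced arrays, against 11.24, 11.23 and 11.25 on uninduced arrays, a difference of 0.03 ± 0.09 (SE). With an SD of 0.0177 over all 6 arrays it had the smallest spread of any member, and Mrpl28 was close to it at 0.0206.

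The clones did not move alike. In A1 the induced minus uninduced difference often ran against both other clones, as earlier results of these data had shown for the arrays in general, and A1 was set apart for that reason. The p-values of A1 against B3 and C6 therefore describe a contrast chosen on these arrays. Of the 76 members 50 (65.8%) moved in A1 against both B3 and C6, 34 of them lower in induced A1 cells and higher in both others and 16 the reverse. A1 moved against both others in 67.0% of the 4684 genes at least as bright as the dimmest member and in 46.1% of all genes. The share lower in induced A1 cells was 44.7% in members, 35.7% in the bright genes and 22.8% in all genes. The share of the reverse was 21.1%, 31.2% and 23.1%. B3 ran against both others in 8 members and C6 in 12. On induction 5 members (Mrpl12, Mrpl34, Mrps28, Mrps12 and Mrpl14) were higher in all 3 clones and Mrps16 was lower in all 3. Of the 4684 bright genes 213 were higher in all 3 clones and 243 lower, and of all 18193 genes 1509 and 1522. Across members, which are not independent replicates, the correlation of A1 with B3 was r = -0.69 and that of A1 with C6 -0.79, whereas B3 and C6 had 0.69. The bright genes gave -0.79, -0.84 and 0.77 for the same 3 pairs.

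**Figure D3:**
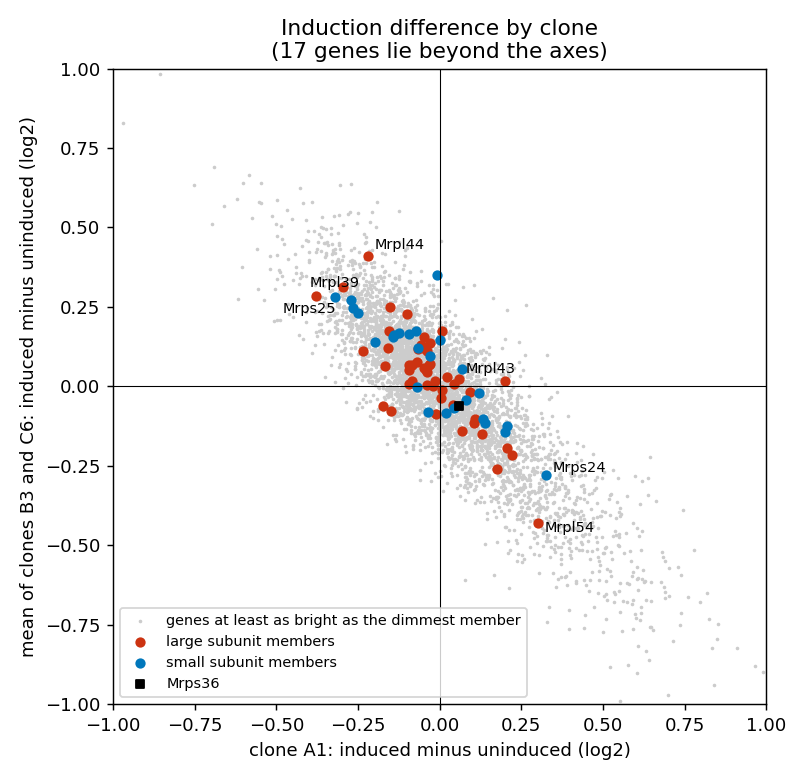
Induced minus uninduced difference (log2) in clone A1 on the horizontal axis and its mean over B3 and C6 on the vertical axis, for large and small subunit members, Mrps36 and, in grey, genes at least as bright as the dimmest member. Members lie along the same falling diagonal as the grey genes, with Mrpl39, Mrpl44 and Mrps25 at the upper left and Mrps24 and Mrpl54 at the lower right.

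The members' median difference was -0.04 for A1, 0.04 for B3 and 0.04 for C6, and the A1 difference minus the mean of B3 and C6 was -0.10, against -0.03 for the bright genes and 0.0037 for all genes. It was below 0 in 48 members and above 0 in 28. Large subunit members had a median of -0.10 and small subunit members -0.13, and A1 ran against both other clones in 61.2% of the large and 76.9% of the small.

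In limma the A1 difference against B3 and C6 had an adjusted p under 0.05 in 1219 of 45037 probe sets (2.71%), 769 of them higher and 450 lower in A1, and in 0 of 76 members. At an unadjusted p under 0.05 there were 11 members (14.5%), against 17.1% of all probe sets. The smallest adjusted p among the members was 0.0854. The call depended on the fit. When only the 17168 probe sets averaging 6 or more were fitted, limma called 2355 (13.7%) and 5 members: Mrpl54 and Mrps24 higher and Mrpl39, Mrpl44 and Mrps25 lower in A1. With a mean-variance trend and robust prior it called 2939 probe sets (6.53%) and 7 members, the same 5 with Mrps10 and Mrps18c, both lower in A1. The members' shares were 6.58% and 9.21%, and those of the bright genes 12.9% and 18.5%.

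Mrpl39 encodes a mitochondria-specific large subunit protein. It gave 11.13, 11.16 and 11.47 on induced A1, B3 and C6 arrays, against 11.51, 10.87 and 11.20 on uninduced arrays. The uninduced A1 array was the highest of all 6, and induction went with a lower value in A1 and a higher value in B3 and C6. The A1 difference minus that of the others was -0.66 (95% interval -1.07 to -0.25, limma adjusted p = 0.0961, and 0.0346 among probe sets averaging 6 or more). A second probe set of the gene, with a mean of 10.38, gave -0.01.

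Mrpl44, whose protein has a fold related to ribonuclease III, gave 9.84, 10.19 and 10.42 on induced A1, B3 and C6 arrays, against 10.06, 9.78 and 10.01 on uninduced arrays. Induction went with a lower value in A1 and with higher values in B3 and C6. The contrast was -0.63 (95% interval -1.04 to -0.22, limma adjusted p = 0.110). Its 3 other probe sets gave -0.54, 0.15 and -0.24, 1 of them in the opposite direction. Without A1, limma with the block on the clone gave Mrpl44 the smallest adjusted p of any member for induction in B3 and C6. It was 0.0861, with a difference of 0.41. A1 had been set apart on these same arrays, so the p-values of this fit too describe a chosen comparison. That fit called 981 probe sets (2.18%) and 0 members, and at an unadjusted p under 0.05 stood 11 members (14.5%), against 16.1% of all probe sets.

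Mrps25, a mitochondria-specific small subunit protein, gave 9.21, 9.35 and 9.81 on induced A1, B3 and C6 arrays, against 9.54, 9.13 and 9.47 on uninduced arrays. The contrast was -0.60 (95% interval -1.02 to -0.18, limma adjusted p = 0.132), and its other probe sets, with means of 7.69 and 5.72, gave -0.26 and -0.08. Mrps25 thus kept its sign on all 3 probe sets at smaller sizes. Mrpl1, of the stalk where spent transfer RNA leaves, had -0.61 and Mrps10, with a bacterial homolog in the small subunit, -0.54, with adjusted p = 0.147 and 0.165 in limma. Mrpl1 had a second probe set of nearly the same brightness (8.12, against 8.39) whose contrast was 0.12, and a dim one (4.84) that gave -0.58. The other probe set of Mrps10, with a mean of 6.30, gave -0.06.

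In the other direction stood Mrpl54, a mitochondria-specific large subunit protein with the largest contrast of any member. It gave 9.30, 9.20 and 9.24 on induced A1, B3 and C6 arrays, against 9.00, 9.53 and 9.77 on uninduced arrays. The induced arrays lay within 0.1 of each other and the uninduced arrays were spread, with A1 the lowest of all 6. The contrast was 0.73 (95% interval 0.30 to 1.16, limma adjusted p = 0.0854), and a dim second probe set (mean 4.14) gave 0.33.

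Mrps24, whose bacterial homolog lines the entry of the messenger RNA, gave 10.89, 10.90 and 10.83 on induced A1, B3 and C6 arrays, against 10.57, 11.16 and 11.13 on uninduced arrays. Here too the induced arrays were close together and uninduced A1 was the lowest. The contrast was 0.60 (95% interval 0.19 to 1.02, limma adjusted p = 0.126), and 0.16 on a second probe set with a mean of 10.47. Mrpl4 (0.44), Mrpl10 of the stalk base (0.44) and Mrpl23 (0.40) came next, all large subunit members with bacterial homologs and limma adjusted p between 0.270 and 0.315.

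**Figure D4:**
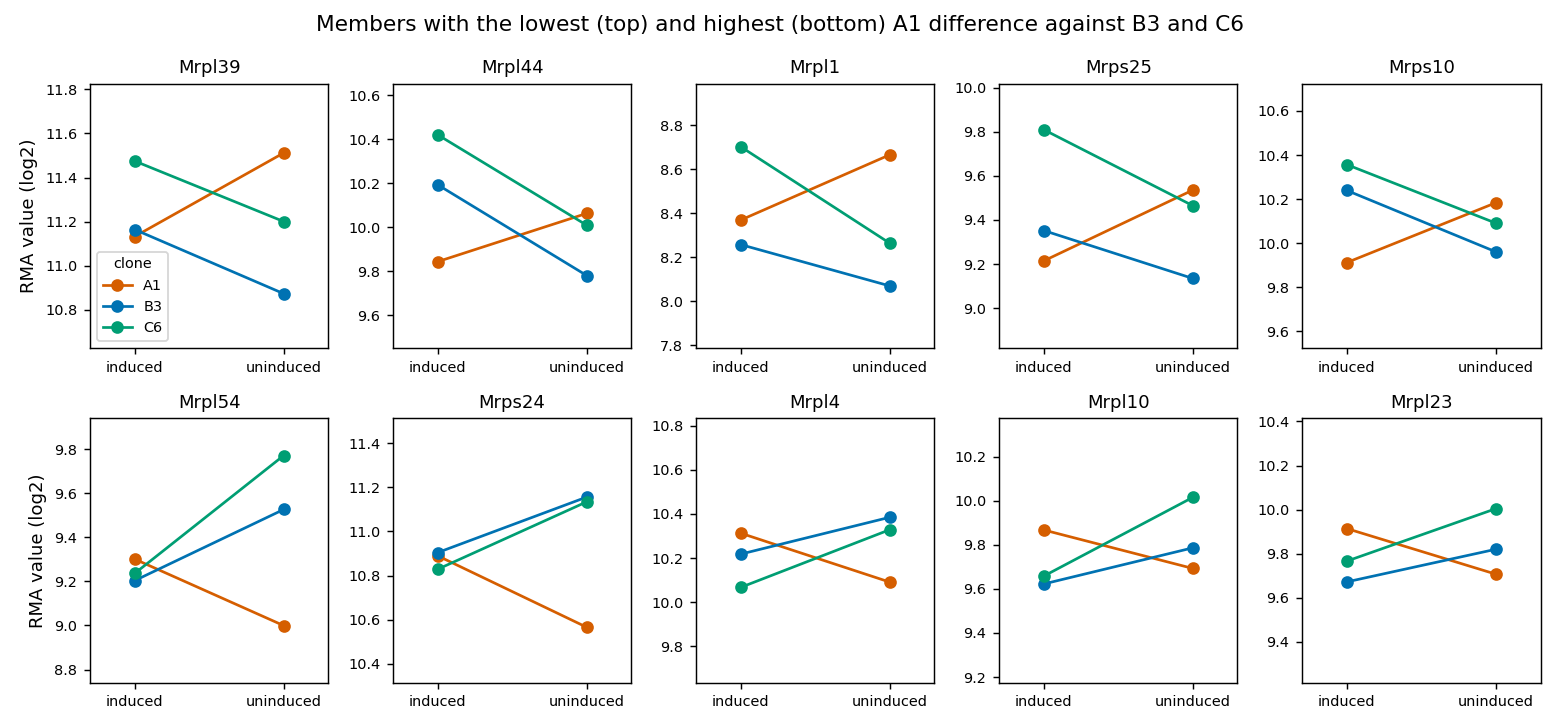
RMA values (log2) of the 5 members with the lowest (top) and the 5 with the highest (bottom) A1 difference against B3 and C6, with induced arrays left, uninduced arrays right and 1 line per clone. In all 10 panels the A1 line slopes against the B3 and C6 lines.

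How far the other probe sets bore out the brightest was counted over the 42 members with several probe sets. In 24 of them all probe sets had an A1 contrast of 1 sign and in 18 at least 1 differed, and 34 of the 80 other probe sets had a mean under 6. Of the 15 such members with a contrast of at least 0.3 in either direction, 10 had 1 sign throughout. Mrps2, of the small subunit, was the clearest exception among the 5 that did not: its brightest probe set (mean 10.20) gave -0.34 and its other (8.61) 0.54. The probe sets of a gene can read different transcript ends, and which of them tracks the transcript was not tested.

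The clones also differed whatever the state. An F test over the 3 clones in limma, with state in the model, called 509 probe sets (1.13%) and 0 members. At an unadjusted p under 0.05 stood 5 members (6.58%), against 16.2% of the bright genes and 13.7% of all probe sets. Mrpl16, a large subunit protein with a bacterial homolog, gave 9.89, 10.18 and 10.54 on induced A1, B3 and C6 arrays, against 9.92, 10.20 and 10.39 on uninduced arrays. The clones kept the same order in both states, and their means spanned 0.56 (limma adjusted p = 0.161). Mrps23 of the small subunit spanned 0.52, with A1 highest and B3 lowest in both states (9.70 and 9.21 induced, against 9.77 and 9.22 uninduced, adjusted p = 0.164).

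Mrpl17, with a bacterial homolog in the large subunit, gave 11.47, 10.94 and 11.43 on induced A1, B3 and C6 arrays, against 11.36, 11.00 and 11.57 on uninduced arrays. B3 was the lowest clone in both states. The span of the clone means was 0.53 (limma adjusted p = 0.169). In the F test without A1, which compares B3 with C6 alone and called 1634 probe sets (3.63%), Mrpl17 was the 1 member called (adjusted p = 0.0299).

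The 3 Mrps18 genes are relatives of a single bacterial small subunit protein, and the ribosome uses them in different places. Mrps18a, in the large subunit, gave 9.62, 9.45 and 9.46 on induced A1, B3 and C6 arrays, against 9.52, 9.47 and 9.48 on uninduced arrays. Mrps18b gave 11.08, 11.09 and 11.01 on induced arrays, against 11.11, 10.99 and 10.92 on uninduced arrays. Mrps18c gave 10.32, 10.60 and 10.67 on induced arrays, against 10.57, 10.40 and 10.42 on uninduced arrays. Only Mrps18c of these 3 ran against the other clones in A1 by more than 0.3, at -0.48 (limma adjusted p = 0.219, and 0.0454 with the mean-variance trend), while Mrps18a had 0.11 and Mrps18b -0.12. Whether the 3 contrasts differed from each other was not tested.

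The members' spread over the arrays was set beside that of the bright genes, which had a lower median signal (9.64, against 10.15) and were not matched to them. Across members the SD fell with the mean signal (Spearman rho = -0.33 over 76 genes). Their SD over the 6 arrays had a median of 0.115, against 0.151 for the bright genes, and 36.8% of members but 24.3% of bright genes had an SD under 0.1. An SD over 0.2 was found in 13 members (17.1%), against 30.6% of the bright genes, and the highest was that of Mrpl54 at 0.271. Contrasts of A1 of at least 0.5 in either direction were found in 8 members (10.5%), against 20.3% of the bright genes. Small subunit members had a median SD of 0.132 and large subunit members 0.102. The oxidative phosphorylation subunits (74 genes, median SD 0.102) were close to the members and the cytosolic ribosomal proteins (48 genes, 0.0518) lower, with median signals of 11.54 and 13.83 that were both above the members'.

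**Figure D5:**
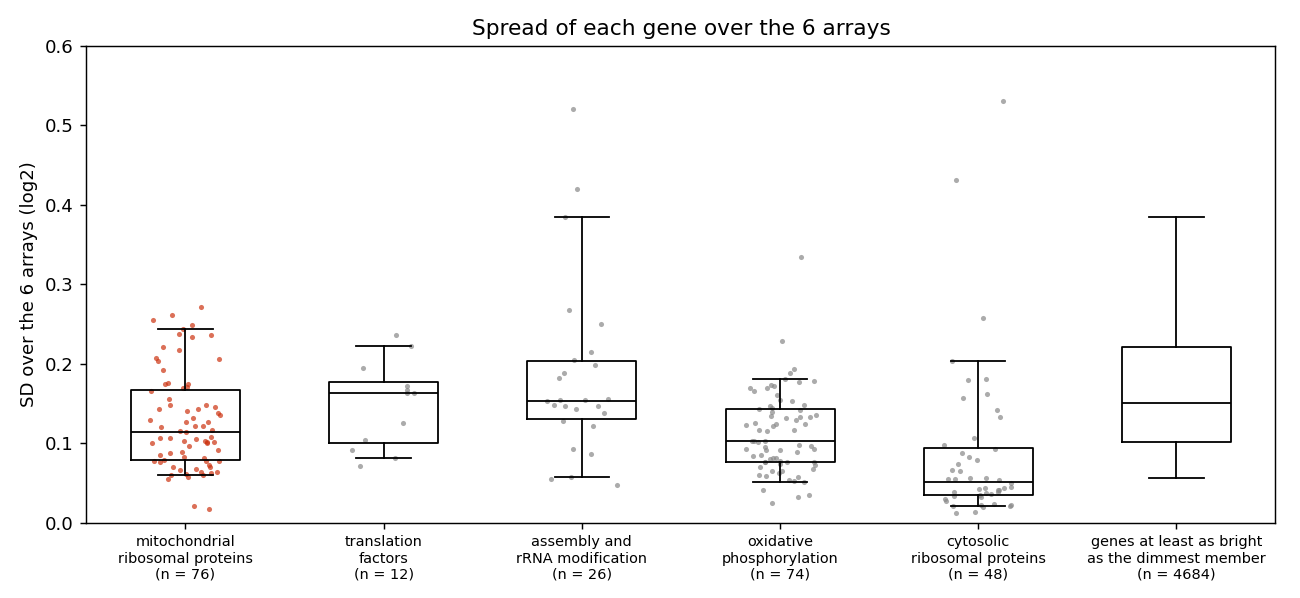
SD of each gene's RMA value (log2) over the 6 arrays, by list, with boxes for the quartiles, a line for the median and whiskers at the 5th and 95th percentiles. The members' median of 0.115 lies between that of the cytosolic ribosomal proteins (0.0518) and that of the genes at least as bright as the dimmest member (0.151).

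The genes that serve the mitochondrial ribosome were read beside its proteins, each list by its own count. For induction itself limma called 0 genes of every list. For the A1 contrast, with 2.71% of all probe sets called, limma called 0 of 4 measured mitoribosomal proteins with other names, 0 of 12 translation factors, 0 of 26 assembly and rRNA modification factors, 0 of 9 genes of mitochondrial DNA and transcription and 0 of 74 oxidative phosphorylation subunits. Of 48 cytosolic ribosomal proteins 1 was called, Rpl27a (-1.16, adjusted p = 0.0425), on a dim probe set for such a gene (mean 7.31). Of 10 regulators of mitochondrial biogenesis 1 was called, Esrrb (1.02, limma adjusted p = 0.0347), an orphan nuclear receptor that is also a pluripotency factor of ES cells and was in the marker list. Esrrb gave 11.30, 10.74 and 10.40 on induced A1, B3 and C6 arrays, against 10.79, 11.11 and 11.04 on uninduced arrays, and its part in the members' values was not tested.

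Among the uncalled, Gadd45gip1, a large subunit protein under another name, had a contrast of 0.68 (limma adjusted p = 0.0969), while Dap3 of the small subunit had 0.02. Gfm1, the elongation factor that moves the ribosome along, had -0.79 (adjusted p = 0.0651 in limma) and Tufm, the elongation factor that brings transfer RNA, 0.55. These 2 factors of the same elongation cycle thus had contrasts of opposite sign. Mtg1, a GTPase of large subunit assembly, had -0.70, the rRNA methyltransferase Mettl15 -0.69 and the helicase Dhx30 0.64. Tfb2m, a factor of mitochondrial transcription, had -0.62, the protease Lonp1 0.61 and Ssbp1, which binds single-stranded mitochondrial DNA, -0.44. At an unadjusted p under 0.05 stood 9 of the 26 assembly factors (34.6%), 3 of the 9 genes of mitochondrial DNA and transcription (33.3%) and 3 of the 12 translation factors (25%). The share was 14.5% in the members, 12.2% in the oxidative phosphorylation subunits, 26.2% in the bright genes and 17.1% in all probe sets.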

How the data were processed

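Total RNA of 3 clones in 2 states was hybridized to Affymetrix mouse arrays, and the authors deposited log2 RMA values. Their processing notes name affy and RMA, with versions not given in the sources used here. RMA by default normalizes probe intensities to 1 distribution before summarizing them, so a change shared by most genes may not show, and the number of arrays limits the precision. Groups and clones were taken from titles. Of 45101 probe sets, 64 controls were left out and 45037 tested. Symbols came from the platform table (34945 probe sets with 1 symbol, 932 with several, 9160 with none), and all 76 members matched RefSeq.

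Differences were tested with limma 3.58.1 in R 4.3.3, Benjamini-Hochberg over all probe sets at 0.05: induced against uninduced without a block, as the methods name a t-test and mention no pairing; A1 against B3 and C6 on the clones' differences, whose spread has 1 residual degree of freedom besides the pooling over probe sets, A1 being assumed to vary like the others; and an F test between clones. Arrays of a clone deviated together (A1 r = 0.19, B3 r = 0.53, C6 r = 0.31), and the pairing comes from the clone names in the labels. Nothing says that cultures of a clone were separate experiments, so p-values measure the spread between these arrays. Alternatives were the block on the clone, the methods' t-test, a mean-variance trend, other scalings, a minimum mean of 6, 1 probe set per gene and leaving out arrays or clones. Scripts were tested on simulated data.

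Members named are Mrpl43, the 5 with the smallest p in each direction, the 5 with the largest A1 contrast in each direction, the 3 brightest and dimmest, the 3 with the smallest clone p, the Mrps18 genes, and up to 3 per further list by p of the A1 contrast; Dap3, Mrps2, Mrpl28 and the genes listed by shared sign were added after their values were seen. Mrps18b was classed with the bacterial homologs, like its relatives, after its values were seen. The members and lists were chosen with earlier results of these data known, and the motifs and the window for facing starts after the expression values were seen. Promoters are the first listed start of each gene.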

Additional observations from a re-analysis of the deposited data

How the results depend on the processing

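The count of 0 members and 0 probe sets called for induction stayed at 0 in every alternative except that leaving out clone A1 with the replicate block called 981 probe sets and still 0 members. The replicate block over all 3 clones gave 0 probe sets and 0 members. For the A1 contrast the 1219 probe sets called became 2355 with a mean of at least 6 (5 members), 2939 with a mean-variance trend and robust prior (7 members) and 458 with 1 probe set per gene (0 members), while B3 set against A1 and C6 and C6 set against A1 and B3 each called 0. For differences between clones the 509 called became 1026 with no state in the model and 108 with a mean of at least 6, and leaving out each clone gave 30 (without B3) to 1634 (without A1) probe sets and 0 to 1 members. The members' median induction difference lay between 0.0022 and 0.052 over its 6 alternatives and their median A1 contrast between -0.12 and -0.07 over its 5. Of 551 induction differences of named members under alternatives 66 turned in sign, in 19 of 29 members, all when an array or a clone was left out and none with a call. Causes of these shifts were not tested. With 3 arrays per state, the members' intervals for induction had a median of ± 0.26 without adjustment for the number of probe sets. Calls were made on the adjusted p over all probe sets, so member changes larger than that could also go uncalled. The smallest change that would have been called was not determined.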
